A study of Mus musculus with 3 samples.

Results

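The corneal endothelium is the single inner cell layer of the cornea, and the 8 genes described here encode proteins of its ion, bicarbonate and lactate transport. They were chosen by name, as the rows of the deposited gene table whose identifier equals Atp1b1, Slc4a4, Slc4a11, Car2, Car12, Slc12a2, Slc16a1 or Slc16a3. Earlier results of these data were known when they were chosen. All 8 were found among 21760 genes, and all 8 reached 20 counts in some library, as did 14180 genes of the table. RNA of mouse cornea was sequenced in 3 libraries, 1 for each group. The PNU-282987 group received PNU-282987, which activates the α7 nicotinic acetylcholine receptor, as drops 3 times a day. The excision group lost the lacrimal gland, which models dry eye, and the sham group was cut at the same place with the glands untouched. Strain, age, sex, time after surgery, the number of mice behind a library and the surgery of the PNU-282987 mice are not given in the labels.

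The endothelium keeps the stroma thin and clear by moving ions and lactate out of it towards the fluid of the anterior chamber, so that water follows. The sodium-potassium pump sets the sodium gradient. That gradient drives bicarbonate into the cell through sodium-coupled transporters of the SLC4 family, and carbonic anhydrases speed the interconversion of carbon dioxide and bicarbonate inside the cell and at its surface. Lactate made by the glycolytic epithelium and stroma leaves with protons through monocarboxylate transporters of the SLC16 family. None of the 8 genes is expressed in the endothelium alone, and the epithelium, which gives most of the RNA of a whole cornea, also uses pumps, cotransporters and lactate carriers.

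With 1 library per group, the spread between animals was not measured. No difference was tested, and each ratio compares 2 libraries rather than 2 conditions. Total counts were 39616004 for PNU-282987, 37692972 for excision and 37703843 for sham. Levels are CPM, counts per 1000000 counts of a library after scaling with TMM factors, and each ratio of scaled counts has a 95% interval that covers counting error only. A gene was called where its ratio reached 2-fold in either direction with an interval that left out 1. All 3 comparisons share libraries, so they are not independent of one another. In a bulk sample, fewer cells of a type and less RNA per cell cannot be told apart.

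The tissue label was checked against marker lists. The corneal epithelial genes Krt12, Krt5 and Krt14 were abundant in all 3 libraries (Krt12 had 1634592 counts in PNU-282987, 1135144 in excision and 1541851 in sham). The libraries differed in the summed levels of genes known from neighbouring tissues. Whether such tissue was carried along was not tested. Lens genes summed to 568 CPM in PNU-282987, 22.6 CPM in excision and 630 CPM in sham, and retina genes to 37.5, 7.92 and 22.4 CPM. Conjunctiva and gland genes summed to 5829 CPM in PNU-282987, 3773 CPM in excision and 2246 CPM in sham. Most of that sum was the keratin gene Krt13, at 4619, 3091 and 2022 CPM. Red blood cell genes summed to 9.73 CPM in PNU-282987, 19.4 CPM in excision and 72.0 CPM in sham. Alas2, which was not called in any comparison, gave 7.06, 5.76 and 10.2 CPM of these sums, most of the sum in PNU-282987.

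**Figure D1:**
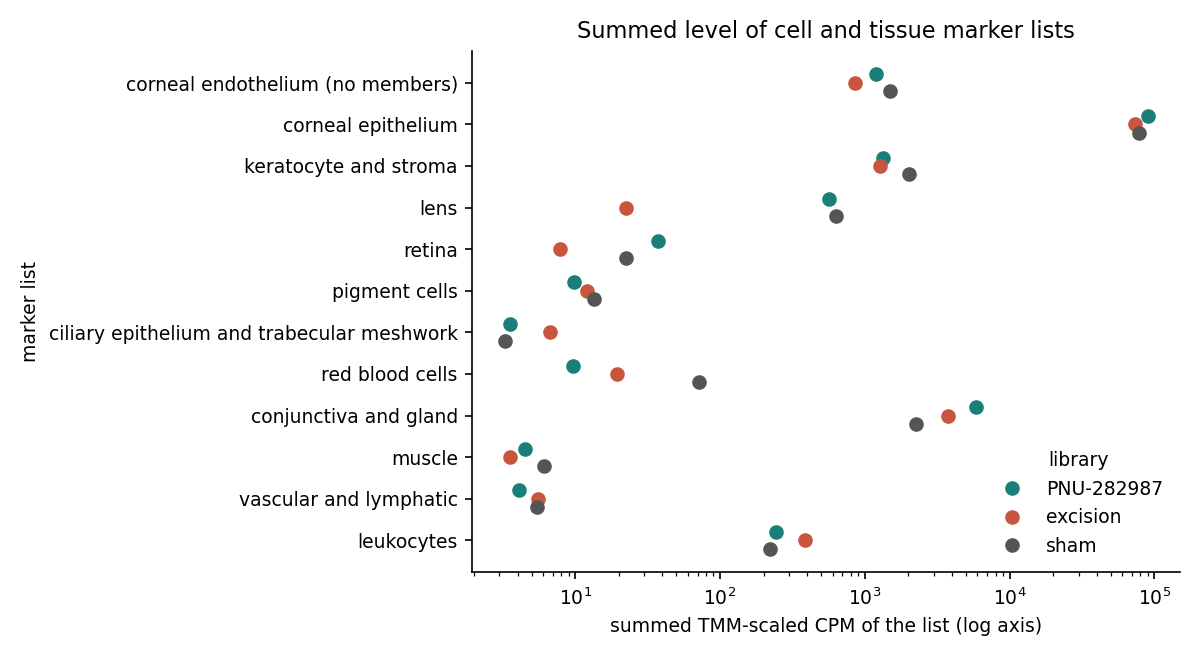
Summed TMM-scaled CPM (log axis) of 12 marker lists in the PNU-282987, excision and sham libraries, 1 point per library. The lens list is at 568 and 630 CPM in PNU-282987 and sham and at 22.6 CPM in excision, and the endothelial list without the 8 genes is lowest in excision, at 856 CPM.

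In the excision library, 5 of the 8 genes were lower than in sham (Atp1b1, Slc4a4, Slc4a11, Slc16a1 and Slc16a3) and 1, Car12, was higher. Among all genes with a ratio, 5.48% were called lower and 4.01% higher in that comparison. The median log2 ratio of the 8 genes was -1.47, and that of all genes was -0.00262. Between PNU-282987 and excision, 4 of the 8 were higher in PNU-282987 (Atp1b1, Slc4a4, Car2 and Car12) and none was lower, where 3.9% of all genes were higher and 5.62% lower. The median log2 ratio of the 8 genes was 1.03, against 0.00764 for all genes. Between PNU-282987 and sham, Car12 was higher and Slc4a11 and Slc16a3 were lower in PNU-282987, where 2.58% of all genes were higher and 4.96% lower. The median log2 ratio was then -0.34 for the 8 genes and 0.00030 for all genes.

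**Figure D2:**
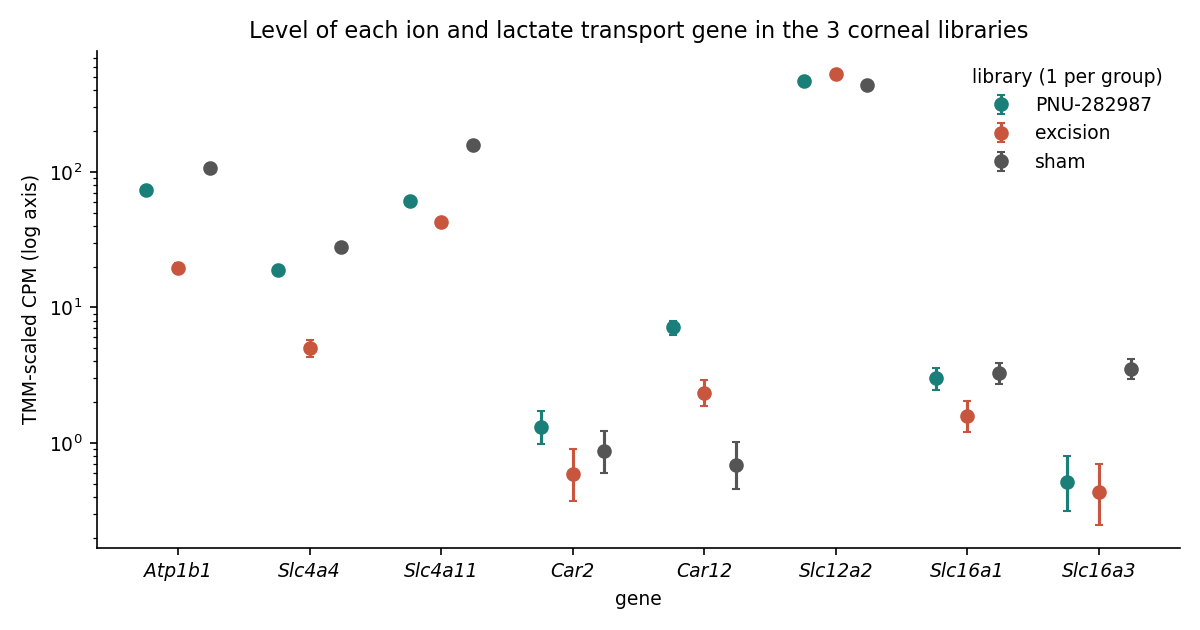
TMM-scaled CPM (log axis) of the 8 genes in the PNU-282987, excision and sham libraries, left to right for each gene. Bars are 95% Poisson counting intervals of a single library. Atp1b1 is at 73.5, 19.7 and 107 CPM, Car12 at 7.11, 2.34 and 0.691 CPM, and Slc12a2 stays between 436 and 528 CPM.

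Atp1b1 (gene ID 11931) encodes the β1 subunit of the sodium-potassium pump, which the pump needs to reach the membrane. It had 2855 counts in PNU-282987, 731 in excision and 4190 in sham, or 73.5, 19.7 and 107 CPM. It was low in excision, and the other 2 libraries were closer to each other. Excision was 5.45-fold lower than sham (95% interval 5.04 to 5.90), PNU-282987 was 3.73-fold higher than excision (3.44 to 4.05), and PNU-282987 was 1.46-fold lower than sham (1.39 to 1.53), under the 2-fold threshold. Nme7, which overlaps Atp1b1 by 202 bases in RefSeq, had 804 counts in PNU-282987, 521 in excision and 768 in sham. How reads in the overlap were counted is not given in the sources used here.

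The β3 subunit gene Atp1b3 was not called in any comparison, with 15719 counts in PNU-282987, 12901 in excision and 16616 in sham. Of 10 measured genes among the other pump subunits and the FXYD regulators, which tune pump activity, excision had 2 above sham and 1 below it. The lower one was the β2 subunit gene Atp1b2, with 51 counts in PNU-282987, 24 in excision and 73 in sham. The higher ones were Fxyd1 (19, 87 and 45 counts in PNU-282987, excision and sham) and Fxyd5 (21, 81 and 33 counts). In excision against sham 4.01% of all genes were higher and 5.48% lower.

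Slc4a4 (gene ID 54403) encodes the electrogenic sodium bicarbonate cotransporter NBCe1, the main basolateral route of bicarbonate into endothelial cells. It had 733 counts in PNU-282987, 185 in excision and 1099 in sham, or 18.9, 4.98 and 28.1 CPM. The order of the libraries was that of Atp1b1. Excision was 5.65-fold lower than sham (4.83 to 6.63), PNU-282987 was 3.79-fold higher than excision (3.22 to 4.47) and 1.49-fold lower than sham (1.36 to 1.64). In RefSeq, Slc4a4 has more than 1 annotated start, and counts per gene do not separate the transcripts.

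The promoters of Slc4a4 and Atp1b1 are shown because these genes had nearly the same ratios in all 3 comparisons. Each is the 250 bases before an annotated start, 5′ to 3′ on the gene's strand, from RefSeq on GRCm38.p6. Capitals mark matches on either strand to GGGCGG (the GC box) or CCAAT (the CCAAT box). For Slc4a4, which has 2 such windows in the table, the one at chr5:88887010-88887259 on the plus strand is printed, and the Atp1b1 window is chr1:164458356-164458605 on the minus strand.
Slc4a4: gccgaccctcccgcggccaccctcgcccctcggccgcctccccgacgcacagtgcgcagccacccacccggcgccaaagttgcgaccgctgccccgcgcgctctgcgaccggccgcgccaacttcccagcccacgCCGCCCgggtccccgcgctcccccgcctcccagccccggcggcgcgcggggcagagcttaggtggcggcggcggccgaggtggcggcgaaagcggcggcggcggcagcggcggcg
Atp1b1: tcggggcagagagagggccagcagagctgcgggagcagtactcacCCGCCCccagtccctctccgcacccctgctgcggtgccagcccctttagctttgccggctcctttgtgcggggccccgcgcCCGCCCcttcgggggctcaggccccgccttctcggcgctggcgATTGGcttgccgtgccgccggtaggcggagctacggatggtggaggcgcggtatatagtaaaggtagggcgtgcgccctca
The printed Slc4a4 window held 1 GC box match and was 82.0% G and C. The other Slc4a4 window, chr5:89027716-89027965, differed: it was 48.8% G and C, with 3 CpG, no GC box match and 1 CCAAT match. In comparison, the Atp1b1 window held 2 GC box matches and 1 CCAAT match and was 70.4% G and C. Over 32544 RefSeq promoter windows of the same length the median was 52.4% G and C, 33.0% held GGGCGG and 33.8% held CCAAT. None of these 3 windows held ACGTG, the core of the hypoxia response element, which 16.6% of windows held, or TATAA, the core of the TATA box, which 22.7% held. These matches describe the letters only. Promoter sequences were matched by symbol for 5 of the 8 genes.

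Slc4a11 (gene ID 269356) encodes a transporter of protons, water and ammonia in the same family, and mutations of the human gene cause endothelial corneal dystrophies. It had 2379 counts in PNU-282987, 1577 in excision and 6183 in sham, or 61.3, 42.5 and 158 CPM. Here sham stood above both other libraries. Excision was 3.73-fold lower than sham (3.53 to 3.94) and PNU-282987 was 2.58-fold lower than sham (2.46 to 2.71), while PNU-282987 was 1.44-fold higher than excision (1.35 to 1.54), under the threshold. The ratio of Slc4a4 to Slc4a11 counts was 0.308 in PNU-282987 (0.283 to 0.335), 0.117 in excision (0.100 to 0.137) and 0.178 in sham (0.167 to 0.190). The 3 intervals did not overlap.

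Of 8 measured genes among the other SLC4 transporters and the sodium-proton exchangers with their scaffold proteins, 2 were lower and 1 higher in excision than in sham, and the list median was 0.06. Slc4a8, a sodium-driven chloride bicarbonate exchanger, was lower, with 34 counts in PNU-282987, 12 in excision and 76 in sham. Slc9a3r2, which encodes a scaffold for sodium-proton exchangers, was also lower in excision, with 141, 78 and 194 counts. Slc4a9 was higher, with 47 counts in PNU-282987, 57 in excision and 17 in sham. The anion exchanger gene Slc4a2, the most abundant SLC4 gene of this list, had 1967, 1962 and 1933 counts, nearly level over the 3 libraries. Among all genes 5.48% were lower and 4.01% higher in excision than in sham.

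Other corneal endothelial genes were low beside these 3 in excision. Of 15 measured endothelial genes outside the 8, 9 were lower and none higher in excision than in sham (median log2 ratio -1.33). Among all genes 5.48% were lower and 4.01% higher in that comparison. Col8a1 and Col8a2, collagens of Descemet's membrane, had 1603 and 7930 counts in PNU-282987, 272 and 2555 in excision and 2028 and 12972 in sham. The N-cadherin gene Cdh2 had 201, 53 and 313 counts. In PNU-282987 against excision 7 of the 15 were higher and none lower (median 0.73), where 3.9% of all genes were higher and 5.62% lower. In PNU-282987 against sham 1, Lmx1b, was lower and none higher (median -0.52), where 4.96% of all genes were lower and 2.58% higher. Lmx1b, a transcription factor gene of the anterior segment, had 237 counts in PNU-282987, 268 in excision and 580 in sham, so that sham stood alone as for Slc4a11. Within the endothelial list Foxc1 (2673, 3541 and 2262 counts) and the junction gene Tjp1 (11757, 11854 and 9269 counts) were not called in any comparison. The same held for Alcam (5559, 4117 and 5666 counts), Zeb1 (73, 70 and 93 counts) and Cd200 (18, 21 and 33 counts).

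Lens genes and part of the stromal genes were also lower in excision than in sham. All 14 measured lens genes were lower in excision than in sham and higher in PNU-282987 than in excision. Of these, Mip had 85 counts in PNU-282987, 0 in excision and 76 in sham. Birc7, which was too low to be among the 14, had 7, 0 and 2 counts. The defining lens genes Cryaa, Crybb1 and Crybb2 had 8774, 396 and 5542 counts in PNU-282987, 175, 3 and 106 in excision, and 9525, 504 and 4853 in sham. Of 12 stromal genes 6 were lower in excision than in sham and none higher (median -0.97), and 4 were higher and none lower in PNU-282987 than in excision (median 0.27). Their summed level was 1346 CPM in PNU-282987, 1273 CPM in excision and 2031 CPM in sham, so that PNU-282987 lay nearer to excision than to sham. Of 10 epithelial genes 1 was higher and none lower in excision than in sham (median 0.19). For all these lists, the shares of all genes were 5.48% lower and 4.01% higher in excision than in sham. They were 3.9% higher and 5.62% lower in PNU-282987 than in excision. The part of tissue carried along in Atp1b1, Slc4a4 and Slc4a11 was not tested.

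**Figure D3:**
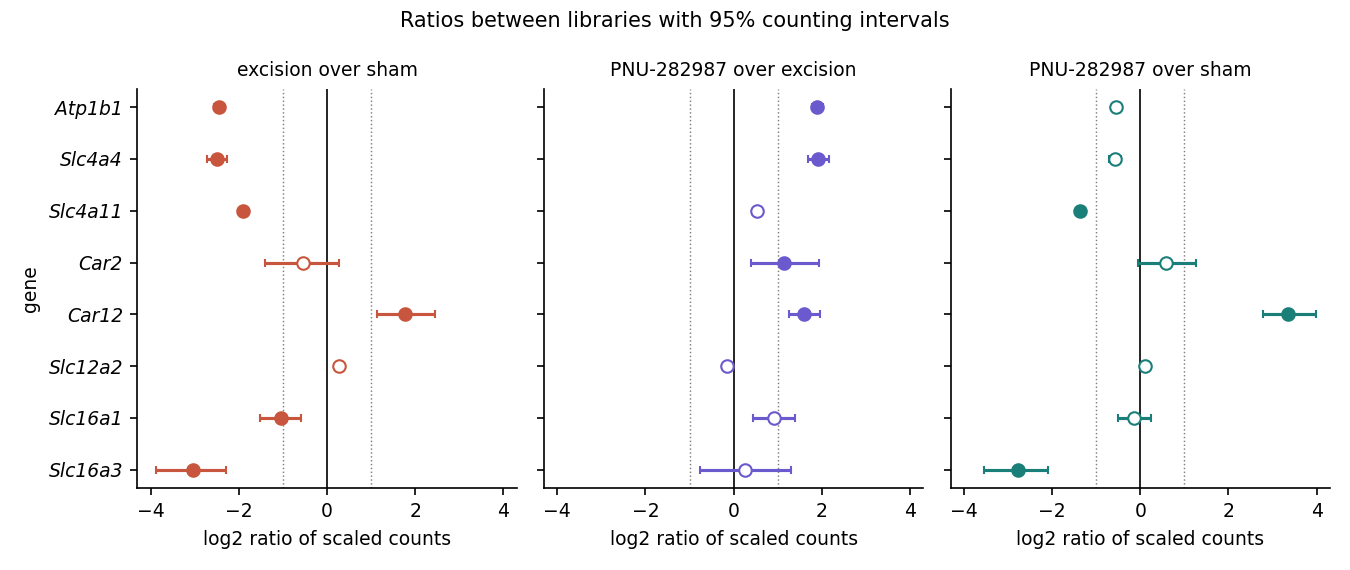
Log2 ratio of scaled counts of the 8 genes in the 3 comparisons, with 95% counting intervals. Filled points were called (at least 2-fold, dotted lines, with an interval excluding 0) and open points were not. Atp1b1 and Slc4a4 lie together in each panel, at -2.45 and -2.50 for excision over sham.

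Neither of the 2 carbonic anhydrase genes was called lower in excision than in sham. Car2 (gene ID 12349), the fast cytosolic enzyme, was low, with 51 counts in PNU-282987, 22 in excision and 34 in sham (1.31, 0.593 and 0.871 CPM). PNU-282987 was 2.22-fold higher than excision (1.32 to 3.84). Excision over sham was 0.681 (0.379 to 1.20) and PNU-282987 over sham was 1.51 (0.959 to 2.40), so neither could be told from equal levels at this depth. Red blood cells are rich in this enzyme, and of 6 measured red blood cell genes 4 were lower and none higher in PNU-282987 than in sham, with Hbb-bs, Hbb-bt and Hba-a1 at 32, 16 and 26 counts in PNU-282987, 224, 16 and 122 in excision and 1291, 251 and 612 in sham. Among all genes 4.96% were lower and 2.58% higher in PNU-282987 than in sham. Reads may be shared among haemoglobin copies. The part of blood in the level of Car2 was not tested.

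Car12 (gene ID 76459), whose enzyme acts on the outer face of the cell membrane, was the 1 gene of the 8 that was called higher in both other libraries than in sham. It had 276 counts in PNU-282987, 87 in excision and 27 in sham, or 7.11, 2.34 and 0.691 CPM, and the counting intervals of the 3 levels did not overlap. PNU-282987 was 10.3-fold higher than sham (6.91 to 15.9) and 3.03-fold higher than excision (2.38 to 3.90), and excision was 3.39-fold higher than sham (2.18 to 5.43). The ratio of Car12 to Car2 counts was 5.41 in PNU-282987 (4.002 to 7.45), 3.95 in excision (2.45 to 6.63) and 0.794 in sham (0.461 to 1.36).

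Conjunctiva and gland genes stood in the same order by their summed level, but most of that sum was Krt13. It had 179377 counts in PNU-282987, 114747 in excision and 78979 in sham. Not all genes of the list followed that order. Of 13 measured members of that list 12 were higher and none lower in PNU-282987 than in sham, where 2.58% of all genes were higher and 4.96% lower. Their median log2 ratio was 5.01, with genes at 0 in sham set to their bound. Excision had 4 above and 2 below sham, where 4.01% of all genes were higher and 5.48% lower. The gel-forming mucin gene Muc5ac had 2980 counts in PNU-282987, 11 in excision and 1 in sham, Muc5b had 676, 0 and 1, and Gp2, which encodes a glycoprotein secreted by gland cells, had 3801, 4 and 5. Krt4, a keratin of non-cornified epithelia including the conjunctiva, had 21643, 14142 and 3013 counts. The 2 genes below sham in excision were Spdef (94, 4 and 22 counts) and Fa2h (18, 3 and 20 counts). Muc5b was at 0 in excision, and the secretoglobin genes Scgb2b2 and Scgb1b2 were at 0 in excision and sham. The part of conjunctival or gland tissue in the level of Car12 was not tested.

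The Car12 window is chr9:66713436-66713685 on the plus strand of GRCm38.p6 and is shown, in the same form as above, because Car12 was called higher in both other libraries than in sham.
Car12: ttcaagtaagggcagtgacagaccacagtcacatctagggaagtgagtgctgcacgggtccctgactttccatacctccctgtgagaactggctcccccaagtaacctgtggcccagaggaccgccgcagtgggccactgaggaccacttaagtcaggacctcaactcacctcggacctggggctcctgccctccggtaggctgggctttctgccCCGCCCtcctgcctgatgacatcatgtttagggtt
It held 1 GC box match, marked in capitals, and no match to the other motifs searched. It was 59.2% G and C and had 6 CpG, the median number over all windows, against 44 in the printed Slc4a4 window, 3 in the other Slc4a4 window and 24 in the Atp1b1 window.

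Of 10 measured genes among the other carbonic anhydrases 6 were lower and 1 higher in excision than in sham (median log2 ratio -1.31). Among all genes 5.48% were lower and 4.01% higher there. Against excision, PNU-282987 had 4 higher and 1 lower (median 0.80), beside 3.9% and 5.62% of all genes. Against sham, PNU-282987 had 1 higher and none lower (median -0.03), beside 2.58% and 4.96%. Car3, a cytosolic form of low activity known from muscle and fat, had 15454 counts in PNU-282987, 1519 in excision and 16340 in sham, and excision was 10.2-fold lower than sham (9.70 to 10.8). Car5b, a mitochondrial form, was not called in excision against sham, with 6931, 4869 and 6097 counts, and it stood above Car3 in CPM in excision (131 and 40.9 CPM). The membrane forms Car9 (268, 56 and 392 counts) and Car14 (97, 22 and 125 counts) were 6.65-fold and 5.40-fold lower in excision than in sham. Car6, the secreted form of saliva and tears, had 62, 19 and 57 counts. Car13, another cytosolic form, was higher in PNU-282987 than in sham (560, 422 and 226 counts).

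Slc12a2 (gene ID 20496) encodes NKCC1, the cotransporter that brings sodium, potassium and chloride into the cell, and it was not called in any comparison. It had 18345 counts in PNU-282987, 19586 in excision and 17028 in sham, or 472, 528 and 436 CPM. The libraries differed by little: excision was 1.21-fold higher than sham (1.19 to 1.24), PNU-282987 over excision was 0.895 (0.877 to 0.914) and PNU-282987 over sham was 1.08 (1.06 to 1.11). Slc12a2 made up 74.0% of the summed CPM of the 8 genes in PNU-282987, 88.0% in excision and 59.1% in sham. Without it the other 7 summed to 166 CPM in PNU-282987, 72.1 CPM in excision and 302 CPM in sham.

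Few partners of this cotransporter were called. Of 10 measured genes among the other SLC12 cotransporters and the WNK and SPAK/OSR1 kinases that switch them, none was called higher or lower in excision than in sham (median log2 ratio 0.26). The kinase gene Wnk1 had 5263 counts in PNU-282987, 6818 in excision and 4985 in sham. Stk39, which encodes SPAK, was higher in PNU-282987 than in sham (191, 100 and 84 counts), and the potassium chloride cotransporter gene Slc12a5 was lower in PNU-282987 than in excision (25, 61 and 45 counts). Of 8 measured genes on the chloride channel list, 1 was lower and none higher in excision than in sham, where 5.48% of all genes were lower and 4.01% higher. The lower gene was the calcium-activated channel gene Ano1, with 64 counts in PNU-282987, 25 in excision and 57 in sham. Adcy10, the soluble adenylyl cyclase gene (6, 16 and 9 counts), and the channel gene Cftr (3, 1 and 7 counts) were too low to be among the 8.

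The lactate carriers were low and differed from each other. Slc16a1 (gene ID 20501) encodes MCT1, a carrier of lactate and protons found in most cells. It had 116 counts in PNU-282987, 59 in excision and 128 in sham, or 2.99, 1.59 and 3.28 CPM. Excision was 2.06-fold lower than sham (1.504 to 2.86), just past the 2-fold threshold. PNU-282987 was 1.88-fold higher than excision (1.36 to 2.62), just short of it, and PNU-282987 over sham was 0.911 (0.703 to 1.18), not distinguishable at this depth.

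Slc16a3 (gene ID 80879) encodes MCT4, the lactate exporter of glycolytic cells. It had 20 counts in PNU-282987, 16 in excision and 138 in sham, or 0.515, 0.431 and 3.53 CPM. Sham stood alone, and the intervals of the other 2 libraries overlapped. Excision was 8.20-fold lower than sham (4.87 to 14.7), PNU-282987 was 6.86-fold lower than sham (4.27 to 11.6), and PNU-282987 over excision was 1.19 (0.588 to 2.47). The ratio of Slc16a3 to Slc16a1 counts was 0.172 in PNU-282987 (0.102 to 0.279), 0.271 in excision (0.146 to 0.478) and 1.08 in sham (0.841 to 1.38). Csnk1d, which overlaps Slc16a3 by 1292 bases in RefSeq, had 5788 counts in PNU-282987, 5040 in excision and 5140 in sham and did not share the difference, although reads in the overlap could belong to either gene.

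The Slc16a3 window is chr11:120948817-120949066 on the plus strand of GRCm38.p6. It is shown because hypoxia-inducible genes were examined beside this gene, which is a known target of hypoxia-inducible factor.
Slc16a3: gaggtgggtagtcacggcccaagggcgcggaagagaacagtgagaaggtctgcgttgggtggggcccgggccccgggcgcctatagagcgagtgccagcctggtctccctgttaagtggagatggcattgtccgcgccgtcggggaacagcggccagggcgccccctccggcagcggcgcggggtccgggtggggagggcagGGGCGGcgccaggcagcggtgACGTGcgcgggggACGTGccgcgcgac
Capitals mark 2 matches to ACGTG, from 27 to 23 and from 14 to 10 bases before the start, and 1 GC box match. It was 73.6% G and C. The Slc16a1 window held an ACGTG match on each strand at overlapping positions, 1 GC box match and TATAA matches on both strands at overlapping positions.

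Of 12 genes of the hypoxia-inducible list 3 were lower and none higher in excision than in sham (median log2 ratio -0.31). Among all genes 5.48% were lower and 4.01% higher there. In PNU-282987 against sham 3 were lower and none higher (median -0.36), where 4.96% of all genes were lower and 2.58% higher. Hypoxia signalling was not tested. Bnip3, a mitophagy receptor gene, had 75 counts in PNU-282987, 90 in excision and 268 in sham, and Adm, which encodes the peptide adrenomedullin, had 81, 50 and 256. Both were lower in both libraries than in sham, as Slc16a3 was. P4ha1, a collagen prolyl hydroxylase gene, was lower in excision (552, 320 and 887 counts) and Ankrd37 in PNU-282987 (11, 31 and 44 counts). The other 8 genes were not called against sham. They included Egln3, the most abundant gene of the list (40528, 36258 and 46908 counts), and Pdk1 (3704, 2727 and 3368 counts). Slc2a1, the glucose transporter gene, was another (1365, 1151 and 1836 counts). The haemoglobin genes were also lower in both libraries than in sham, and the part of blood in the level of Slc16a3 was not tested.

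Basigin, the chaperone that carries MCT1 and MCT4 to the membrane, was lower in excision. Its gene Bsg had 23482 counts in PNU-282987, 12522 in excision and 26676 in sham, and excision was 2.02-fold lower than sham (1.98 to 2.07). It was the 1 called gene of 12 measured in that comparison among the other SLC16 carriers, their chaperones and lactate dehydrogenase (median log2 ratio -0.15). The second chaperone gene, Emb, had 1664, 1015 and 887 counts and Ldha, the lactate dehydrogenase A gene, had 22139, 18398 and 21115. The most abundant carrier genes of the list, Slc16a11 (2878, 2763 and 2168 counts) and Slc16a12 (1750, 1338 and 2012 counts), a creatine transporter gene, were not called. Slc16a10, an aromatic amino acid transporter gene, was lower in PNU-282987 than in excision (74, 155 and 132 counts). Among all genes 5.48% were lower and 4.01% higher in excision than in sham.

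**Figure D4:**
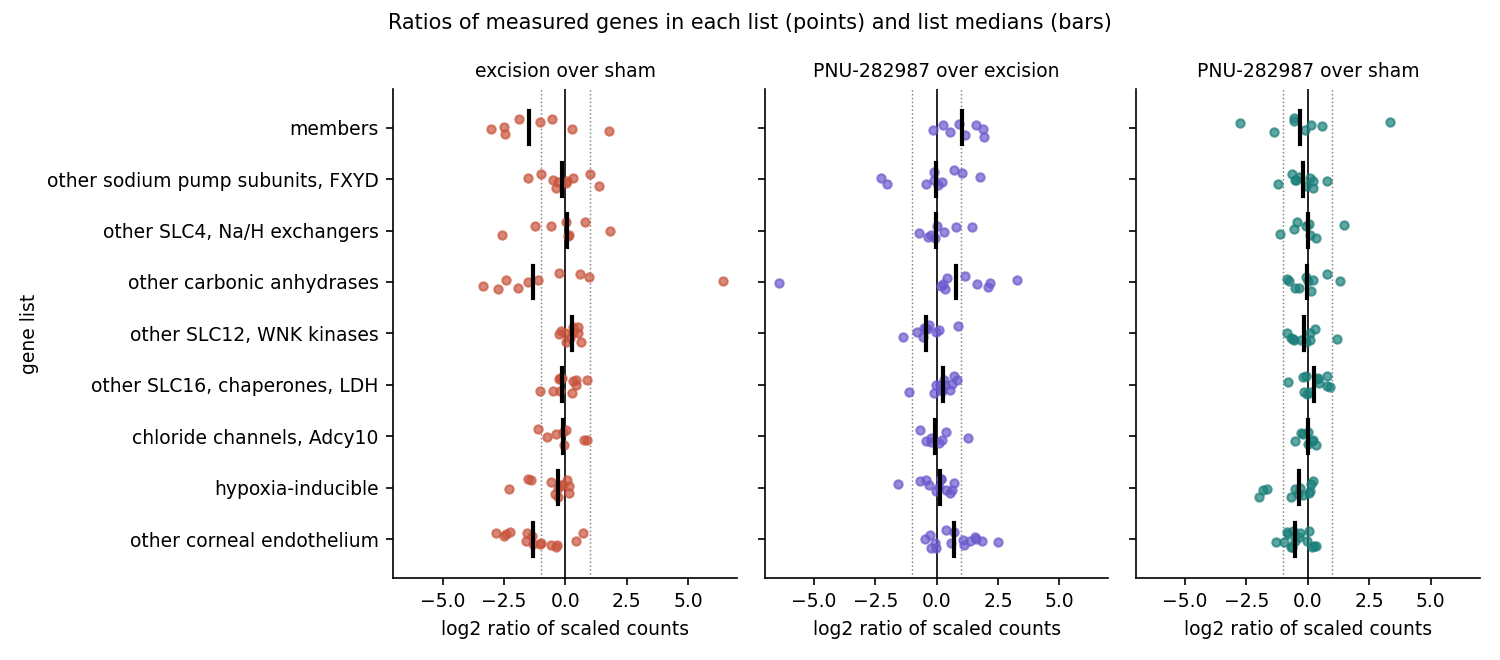
Log2 ratios of scaled counts in the 3 comparisons for the 8 genes, 7 lists of related transport and hypoxia genes, and the other endothelial genes. Points are genes that reached 20 counts in any library, black bars are list medians and dotted lines mark 2-fold. In excision over sham the medians of the 8 genes, the other carbonic anhydrases and the other endothelial genes are -1.47, -1.31 and -1.33, and the other lists lie between -0.31 and 0.26.

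Over the 7 lists of related genes together, 70 genes were measured. In excision against sham 20% of them were lower and 5.71% higher, beside 5.48% and 4.01% of all genes. In PNU-282987 against excision 11.4% were higher and 8.57% lower, beside 3.9% and 5.62% of all genes. In PNU-282987 against sham 4.29% were higher and 7.14% lower, beside 2.58% and 4.96% of all genes. These last shares were 3 and 5 genes. The lists were chosen with earlier results of these data known, so the shares are no test of an excess over all genes. The 14 genes lower in excision included 6 carbonic anhydrases. In the gene ontology terms of the deposited table all 8 genes carried the term basolateral plasma membrane. It was shared by 180 measured genes, the 8 included. Of these 180, excision had 5 above and 21 below sham, where 4.01% of all genes were higher and 5.48% lower. The 8 genes themselves gave 1 of those above and 5 of those below, so the term is not separate from them. The median log2 ratio of the 180 genes was 0.04.

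To compare the genes with one another, CPM were divided by exon length in kilobases (GENCODE M21, protein-coding transcripts), which may differ from the annotation the authors counted on. Slc12a2 was highest in every library, at 72.5 CPM per kilobase in PNU-282987, 80.9 in excision and 66.9 in sham. Atp1b1 (28.5) came before Slc4a11 (19.2) in PNU-282987, whereas Slc4a11 came before Atp1b1 in excision (13.3 and 7.63) and in sham (49.5 and 41.6). The other 5 were under 3 CPM per kilobase everywhere. Car12 took the fourth place in PNU-282987 (1.91) and excision (0.631) and came last in sham (0.186), where Slc4a4 took the fourth place (2.74). Neighbours with overlapping counting intervals were Car12 and Slc4a4, and Car2 and Slc16a1, in PNU-282987. In excision they were Car12 and Slc4a4, Slc4a4 and Slc16a1, and Slc16a1 and Car2, and in sham Slc16a3 and Slc16a1, and Slc16a1 and Car2.

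Genes with the most similar pattern were taken as those with the smallest Euclidean distance in the log2 ratios of excision over sham and PNU-282987 over sham, 2 values from 3 libraries. Cdh2 was nearest to Slc4a4 (distance 0.06) and second nearest to Atp1b1 (0.10), after Spata13 (0.07). Bsg was second nearest to Slc16a1 (0.05), after Mme (0.04). Slc12a2 had close neighbours in Kazn (0.0033) and Proser2 (0.0057). Ndufa4l2 and Eif3j2 were nearest to Slc4a11 (0.17 and 0.20), Slc5a3 and Bbs9 to Car2 (0.07 each), and Lrtm2 was second to Slc4a4 (0.09). Car12 and Slc16a3 had no close neighbour: the nearest were Sptssb (0.40) and Krt17 (0.41) for Car12, and Il17c (0.77) and Crb2 (0.91) for Slc16a3. With 2 values per gene, likeness here is a description.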

How the data were processed

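RNA of mouse cornea was measured by sequencing in 3 libraries, 1 per group. Extraction used TRIzol and library construction the VAHTS Universal V6 kit, per the labels' protocols. The authors deposited raw counts per gene as whole numbers, with HTSeq and R 3.2.0 listed in the submitters' processing notes. The sources used here do not name the aligner, build, annotation, strand setting or handling of shared reads. Each column was tied to its sample by title.

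Library totals were 37692972 to 39616004 counts. Scaling used TMM factors (edgeR 4.0.16, R 4.3.3) (0.980 for PNU-282987, 0.985 for excision and 1.04 for sham). The median-of-ratios alternative used DESeq2 1.42.0, for scaling only. Python 3.11.15 ran all else, with SciPy 1.17.1, pandas 2.3.3, NumPy 2.4.6 and matplotlib 3.10.9. No pseudocount entered the ratios. Counts of 0 were replaced by a floor of 3 counts per library (0.0773 CPM in PNU-282987, 0.0808 in excision and 0.0768 in sham); with 3 counts or fewer in the other library, the ratio was left out. The 95% intervals of ratios are exact conditional binomial (Clopper-Pearson), those of levels exact Poisson. Both describe counting error alone. PCR reads lacking molecular identifiers do not count molecules independently, so the intervals may be too narrow even for that error. Genes that reached 20 counts in any library were kept. With 1 library per group no p-value was computed. The ratio and calling steps were tested on simulated counts with known folds.

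The 8 genes and the 19 lists (7 of related genes, 12 of markers) were chosen with earlier results of these data known. By a fixed rule the text names the 8 genes, up to the 4 list members with the largest called ratio per comparison, the first 3 markers of a list, and the 2 nearest genes by pattern among genes with at least 200 counts in the highest library and 20 in every library. Marker lists are given where they stand beside a result, and a few list members are counted only and not reported by name here. Tjp1, Foxc1, Lmx1b, Krt4, Scgb2b2, Scgb1b2, Mip, Birc7, Atp1b3, Slc4a2, Wnk1, Pdk1, Slc2a1, Emb, Ldha, Slc16a11, Slc16a12, Car5b, Car6, Itgam and S100a8 were named after their values were seen where the rule does not name them. Krt13, Alcam, Zeb1, Cd200, Egln3, Alas2, Adcy10 and Cftr were also named in this way, and ontology terms were chosen likewise. Promoters are from RefSeq (GRCm38.p6).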

Additional observations from a re-analysis of the deposited data

How the results depend on the processing

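Scaling to total counts, by DESeq2 size factors, or with TMM factors from genes outside the other-tissue and endothelial lists reversed none of 72 ratios of the 8 genes, and 68 stayed within their counting interval. The 4 that left it did so under total counts, by at most 0.08 on the log2 scale: Slc12a2 (0.20 for excision over sham and 0.04 for PNU-282987 over sham), Slc4a11 (-1.45) and Atp1b1 (-0.62), both for PNU-282987 over sham. The number of the 8 genes called was within 1.5 times under every alternative, except that at a threshold of 3-fold 1 gene (Slc16a3) and not 2 was lower in PNU-282987 than in sham. Counts over all genes moved with the filter and the threshold. Without a filter 948 genes were higher in excision than in sham, 1240 were lower in PNU-282987 than in excision, and 649 were higher and 1080 lower in PNU-282987 than in sham. With at least 100 counts in some library the numbers higher and lower were 237 and 313 for excision against sham, 224 and 287 for PNU-282987 against excision, and 127 and 199 for PNU-282987 against sham. At 1.5-fold they were 1166 and 1281, 1081 and 1582, and 712 and 1376, and at 3-fold 288 and 422, 283 and 389, and 161 and 293, in the same order. With these settings fewer or more genes can be called by construction. No paired analysis was possible because each group has 1 library, and no library could be left out. Depth limits Car2, with 51 counts in PNU-282987, 22 in excision and 34 in sham, and Slc16a3, with 20 in PNU-282987 and 16 in excision.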

Other observations

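Car1, a carbonic anhydrase known from red blood cells and colon, was the 1 gene called higher in excision than in sham among the 10 measured carbonic anhydrases other than Car2 and Car12. It had 1 count in PNU-282987, 81 in excision and 1 in sham, while the haemoglobin gene Hbb-bs had 32, 224 and 1291 counts and Slc4a1, the anion exchanger of red blood cells, had 0, 0 and 1. The ratio of excision to sham was 85.2 (14.9 to 3407), with a wide interval because sham had a single count.

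Leukocyte markers differed among themselves. In excision against sham, 7 of 12 measured leukocyte genes were called higher and 2 lower, where 4.01% of all genes were higher and 5.48% lower. In PNU-282987 against sham 4 were higher and 1 lower, where 2.58% of all genes were higher and 4.96% lower. The list summed to 245 CPM in PNU-282987, 386 CPM in excision and 223 CPM in sham. Most of that sum was Itgam (179, 253 and 176 CPM), which was not called. The antigen presentation gene Cd74 had 591 counts in PNU-282987, 2297 in excision and 282 in sham, whereas S100a9 and S100a8, known from neutrophils, had 617 and 18 counts in PNU-282987, 34 and 14 in excision and 718 and 48 in sham. Pigment cell genes were low in all libraries, at 9.84 CPM in PNU-282987, 12.0 CPM in excision and 13.6 CPM in sham, and genes of the ciliary epithelium and trabecular meshwork summed to 3.53, 6.71 and 3.25 CPM. In that list Myoc had 37 counts in PNU-282987, 118 in excision and 25 in sham.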
